A study of Mus musculus with 12 samples.

Results

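The genes described here are 3 CLK kinases (Clk1, Clk2 and Clk4), 6 SR splicing factors (Srsf2, Srsf3, Srsf5, Srsf6, Srsf7 and Srsf10) and the SR-like factor Tra2a, 10 of the 54532 genes in the expression table, picked by symbol. All 10 symbols were found once each, and all 10 genes passed the filter on low values (at least 1 FPKM, a unit of fragments per gene length and sequencing depth, in at least 3 of the 12 libraries). RNA-seq had been made from mouse embryonic fibroblasts (MEFs) in 4 groups of 3 libraries. These were CHIP-KO cells heated for 1 hour at 43 °C, unheated CHIP-KO cells, wild-type (WT) cells with that heat treatment and unheated WT cells. CHIP, coded by Stub1, is a ubiquitin ligase that works with heat shock chaperones. The labels give neither how the CHIP-KO line was made nor whether it is 1 clone, and nothing in them tells whether the 3 libraries of each group are 3 cultures, so p-values measure only how far these libraries spread, which may be technical.

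SR proteins bind exonic sequences in pre-mRNA and help the spliceosome choose splice sites, and their arginine and serine rich tails work only in the right state of phosphorylation. CLK kinases phosphorylate those tails in the nucleus and SRPK kinases do so mainly in the cytoplasm, while protein phosphatase 1 removes the phosphates. After heat shock, SR proteins are known to lose phosphates, and Srsf10 in that state acts as a general splicing repressor. Transcripts of these genes are themselves spliced in ways that control their output: Clk1 and Clk4 have nuclear transcripts with retained introns that can be completed after stress, and many SR genes hold a poison exon, an exon whose inclusion brings a premature stop codon and sends the transcript to nonsense-mediated decay (NMD).

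The libraries held 19953642 to 26954112 fragments in heated CHIP-KO cells, 22894580 to 26244726 in unheated CHIP-KO cells, 17103444 to 19294361 in heated WT cells and 15591924 to 20098901 in unheated WT cells. Stub1 averaged 1.08 ± 0.0885 FPKM in heated and 0.971 ± 0.229 FPKM in unheated CHIP-KO cells, against 55.4 ± 2.25 FPKM in heated and 61.7 ± 3.63 FPKM in unheated WT cells (SD, n = 3 each). Hspa1a, the heat-inducible HSP70 chaperone, averaged 1770 ± 177 FPKM in heated and 3.48 ± 0.0549 FPKM in unheated CHIP-KO cells, and 1104 ± 251 FPKM in heated and 2.25 ± 0.414 FPKM in unheated WT cells (SD, n = 3 each). Of 12 fibroblast markers, 11 passed 1 FPKM in some library and Lum did not, and their summed level was 3896 to 4128 FPKM in heated and 3379 to 3568 FPKM in unheated CHIP-KO libraries, against 2659 to 2966 FPKM in heated and 1640 to 1986 FPKM in unheated WT libraries. Of 6 epithelial, 6 endothelial and 5 muscle markers, 5, 6 and 4 stayed under 1 FPKM in all 12 libraries. Of 6 blood and macrophage markers 2 were listed at 0 throughout, and the summed level was 8.55 to 10.8 FPKM in heated and 3.94 to 4.61 FPKM in unheated CHIP-KO libraries, against 13.4 to 15.8 FPKM in heated and 2.001 to 3.41 FPKM in unheated WT libraries. Of 5 mesothelial markers 2 were listed at 0 throughout, and the sum was 31.1 to 38.1 FPKM in heated and 27.7 to 31.9 FPKM in unheated CHIP-KO libraries, against 5.40 to 6.05 FPKM in heated and 29.8 to 30.5 FPKM in unheated WT libraries. The part of these markers in the results below was not tested. Replicate 1 of both WT groups stood apart: over genes, the chi-square per degree of freedom between libraries was 22.3 and 26.7 for heated WT pairs with replicate 1 and 17.6 and 20.3 for unheated WT pairs with it, against 5.09 or less for the other WT pairs. Replicate 1 of heated CHIP-KO cells stood apart as well (10.4 and 16.6 against 3.40).

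The FPKM of a gene sums all of its isoforms, so a productive and an unproductive transcript of a CLK or SR gene cannot be told apart in these values. In the GENCODE M21 annotation, 9 of the 10 genes (90%; all but Srsf10) have at least 1 transcript marked as an NMD target, against 29.3% of the 11024 protein-coding genes that passed the filter, and the median is 10 annotated transcripts against 5. Of the same 10 genes, 9 (90%) have a retained-intron transcript, against 60.04% of those protein-coding genes. Clk1 has 1 protein-coding transcript among 13, beside 7 with a retained intron and 2 marked for NMD, and Clk4 has 4 among 14, beside 7 with a retained intron and 3 marked for NMD. In 3 of the 10 genes (Srsf3, Srsf7 and Tra2a) an annotated NMD transcript holds an internal exon that is missing from the coding transcript and brings an in-frame stop. These exons are shown because their inclusion is the known route by which such genes limit their own output. Whether reads in them were counted is not given in the sources used here, and the deposited Srsf7 model differs from that of GENCODE M21. The sequences run 5′ to 3′ on the gene's strand from the start of the exon to that stop, which is in capitals, and come from GRCm38 with GENCODE M21 exons. The Srsf3 exon is exon 4 of 7 of transcript Srsf3-201, on the plus strand at chr17:29039454-29039909 (456 bases), and its first 34 bases are shown. The Srsf7 exon is exon 4 of 9 of transcript Srsf7-203, on the minus strand at chr17:80204622-80205081 (460 bases), with 28 bases shown. The Tra2a exon is exon 2 of 9 of transcript Tra2a-202, on the minus strand at chr6:49252803-49253108 (306 bases), with 144 bases shown.
Srsf3: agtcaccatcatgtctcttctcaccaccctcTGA
Srsf7: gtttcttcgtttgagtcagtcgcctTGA
Tra2a: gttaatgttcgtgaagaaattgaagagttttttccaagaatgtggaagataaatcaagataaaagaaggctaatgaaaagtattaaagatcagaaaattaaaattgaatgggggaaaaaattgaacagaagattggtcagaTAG

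Promoters were searched for heat shock elements, the inverted repeats that heat shock factor 1 binds, because heat is the treatment here. The search used GAANNTTC and TTCNNGAA, pairs of neighbouring units, in the 300 bases from 250 before to 50 after each start in the RefSeq table (GRCm38.p6). Each motif is its own reverse complement, so a match reads alike on both strands. Of 32851 promoters in the table, 15.1% hold such a pair, and 0.603% hold 3 units in a row (GAANNTTCNNGAA or TTCNNGAANNTTC). The table has promoters of 9 of the 10 genes, all but Clk1, and 0 of the 9 held a match. For Clk4 and Srsf10 the table's start lies 1384 and 324 bases from the gene start in the expression table, beyond the 250 bases searched before it, and for the other 7 genes it lies 0 to 32 bases away. Hspa1a, used here as the check of heat, has a match 104 bases before its start, and the SR gene Srsf9 has one 161 bases before its start. Of 4 heat shock genes looked at, all called higher with heat in both genotypes, Hspa1a, Hspb1 and Hspa1b held a match. The remaining gene, Dnajb1, held none in any of its listed promoters. The lack of a match in this search therefore does not tell whether a gene rises with heat. The 2 Tra2 genes are shown together because both were called higher with heat in both genotypes on the deposited scale (below) and they differ in this motif. Tra2a (minus strand, chr6:49264003-49264302) has no match. Tra2b (minus strand, chr16:22265956-22266255), a paralog coding for a partner splicing activator, holds 3 units in a row, in capitals, with its overlapping matches starting 207 and 202 bases before the start.
Tra2a promoter: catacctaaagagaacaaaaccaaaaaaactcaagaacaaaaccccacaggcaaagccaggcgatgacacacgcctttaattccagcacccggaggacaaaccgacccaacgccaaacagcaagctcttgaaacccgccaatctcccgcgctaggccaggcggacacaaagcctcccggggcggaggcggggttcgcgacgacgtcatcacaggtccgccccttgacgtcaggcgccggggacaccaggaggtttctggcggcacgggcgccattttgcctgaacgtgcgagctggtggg
Tra2b promoter: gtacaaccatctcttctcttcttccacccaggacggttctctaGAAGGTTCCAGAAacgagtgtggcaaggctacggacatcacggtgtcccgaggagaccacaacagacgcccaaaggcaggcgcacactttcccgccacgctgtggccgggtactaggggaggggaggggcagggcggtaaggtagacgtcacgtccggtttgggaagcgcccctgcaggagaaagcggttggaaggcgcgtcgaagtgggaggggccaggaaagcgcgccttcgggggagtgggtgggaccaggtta

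Per kilobase, the SR genes other than Srsf10 were the most abundant of the 10 and the kinases the least. Srsf2, an SR protein that activates exon inclusion, ranged from 71.7 to 119 FPKM over the 12 libraries, Srsf7 from 63.3 to 81.6 FPKM, Srsf6 from 48.4 to 85.7 FPKM, Srsf5 from 41.5 to 64.1 FPKM and Srsf3 from 38.4 to 65.97 FPKM. These 5 ranges overlap their neighbours in the order. Srsf10 (22.0 to 27.3 FPKM) and Tra2a (19.5 to 31.9 FPKM) lay below all 5, with overlapping ranges. Clk2 (8.45 to 12.996 FPKM), Clk4 (8.47 to 13.5 FPKM) and Clk1 (6.45 to 10.02 FPKM) lay below both and overlapped each other. The lengths behind these levels come from the deposited table and, for all but Srsf7, equal the summed exons of GENCODE M21, with retained-intron and NMD transcripts included. For Srsf7 that length is 2279 bases, against 3550 bases of exons in GENCODE M21, so its place in the order depends on the gene model. The fewest fragments behind any of these 120 values were 706 (Clk2, unheated WT replicate 1), for which counting alone gives an error of 3.76%.

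**Figure D1:**
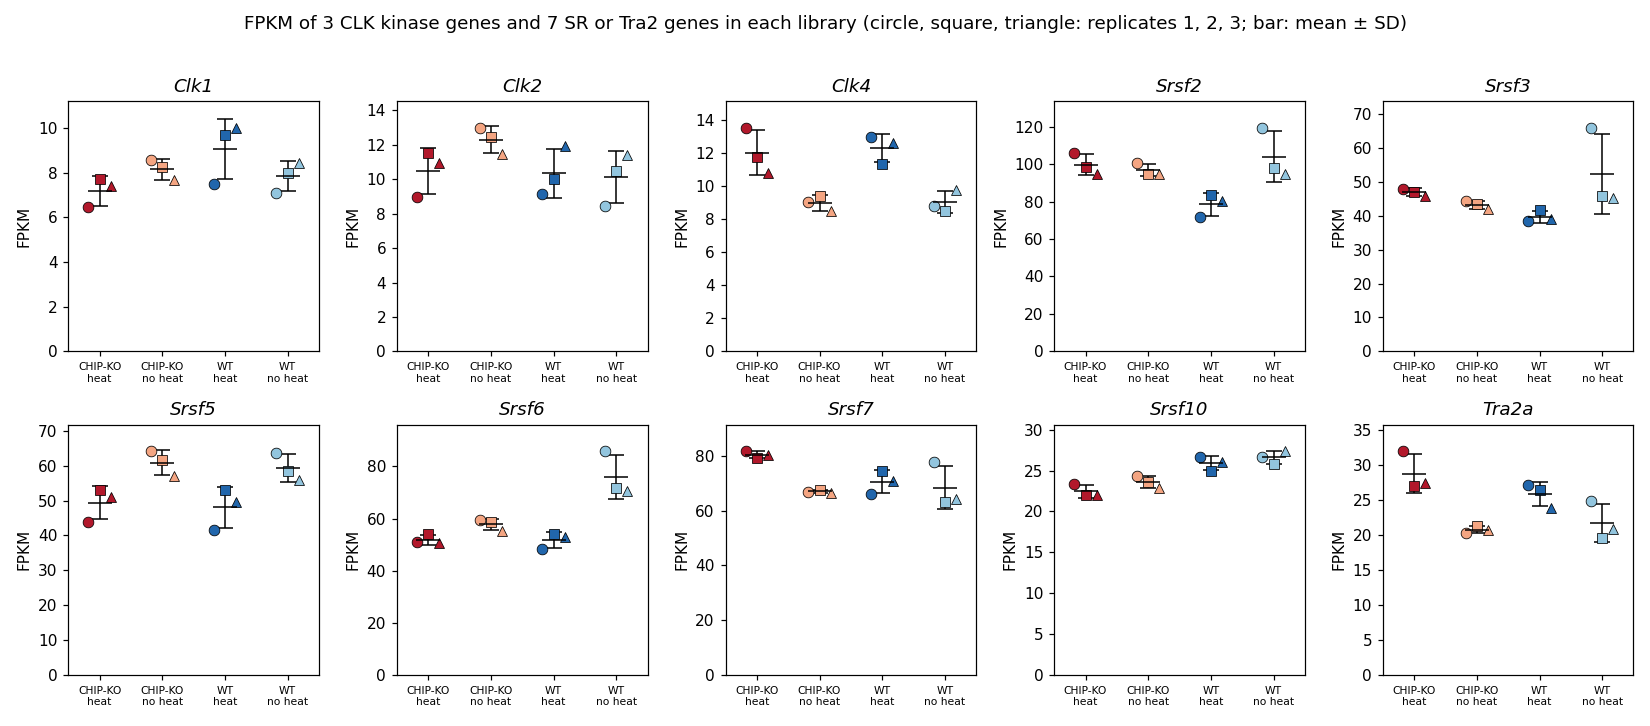
FPKM of the 10 genes in each library, in panels by gene; the horizontal axis gives the group (heated CHIP-KO, unheated CHIP-KO, heated WT, unheated WT), symbols are libraries and bars are the mean ± SD of 3. Clk4 is higher in all 6 heated libraries (10.8 to 13.5 FPKM) than in all 6 unheated libraries (8.47 to 9.75 FPKM), while Srsf6 is highest in unheated WT cells (70.6 to 85.7 FPKM).

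Heat changed these genes in both directions. In bulk RNA a lower level from fewer cells of a type and a lower level per cell cannot be told apart. In CHIP-KO cells 3 of the 10 genes were called higher and 0 lower with heat (Clk4, Srsf7 and Tra2a), where 8.65% of the 13023 genes tested were called higher, 11.4% lower and 20.0% in either direction. In WT cells 2 were called higher (Clk4 and Tra2a), where 28.1% of all genes were, and 4 lower (Srsf2, Srsf3, Srsf5 and Srsf6), where 30.5% were; 58.7% of all genes were called in either direction. By the groups' ranges alone, heated and unheated libraries did not overlap for 6 of the 10 genes in CHIP-KO cells (48.7% of all genes) and for 5 in WT cells (60.4% of all genes). In CHIP-KO cells 1 of the 10 genes was lower at an unadjusted p under 0.05, and limma voom on recovered fragments called 3 lower. Calls are from limma on log2(FPKM + 1) at a Benjamini-Hochberg adjusted p under 0.05 over all genes tested, and the fold changes below are on that scale. The median log2 change of the 10 genes was -0.013 in CHIP-KO cells and -0.0028 in WT cells, against -0.0018 and -0.016 over all genes tested. Scaling each library to the same summed FPKM moved the median of all genes to -0.29 in CHIP-KO and -0.21 in WT cells, and then 0 of the 10 genes were called higher and 6 lower in each genotype. In the deposited values 1 row, the 57-base microRNA gene Gm23935, held 12.4% to 17.0% of the summed FPKM of heated and 2.97% to 4.67% of unheated CHIP-KO libraries, and 13.2% to 15.2% of heated and 2.52% to 3.77% of unheated WT libraries. Directions below are those on the deposited scale.

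**Figure D2:**
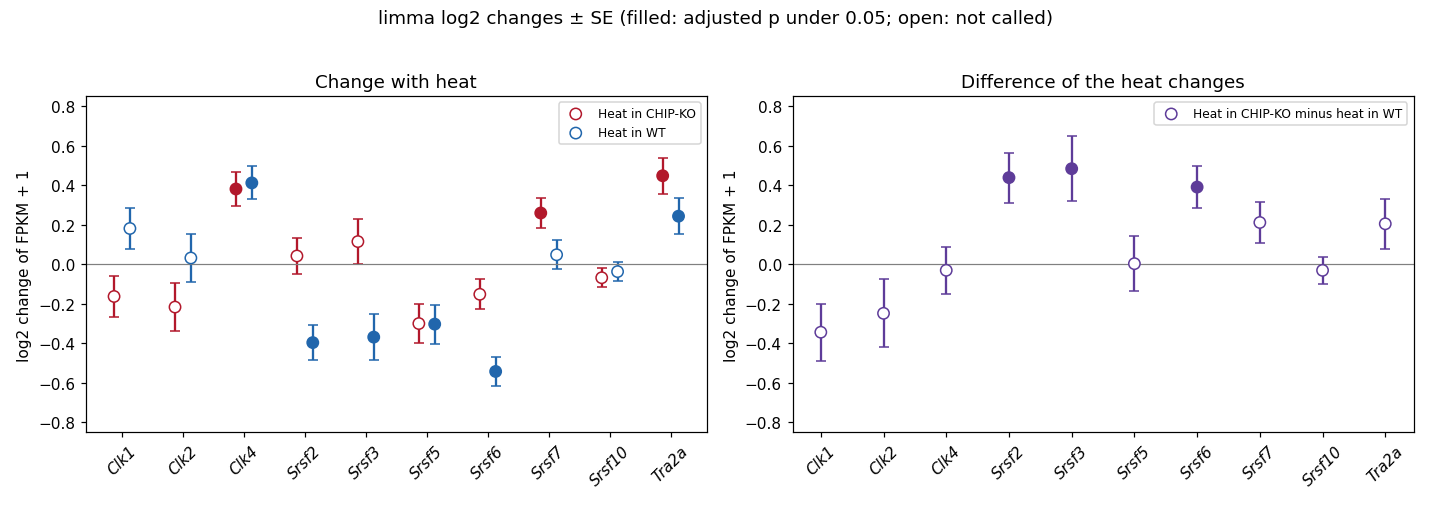
limma log2 changes of FPKM + 1 (± SE) for the 10 genes: the change with heat in CHIP-KO and in WT cells, and the difference between these changes; filled points have an adjusted p under 0.05. Clk4 and Tra2a lie above 0 and are filled in both genotypes, and the 3 filled differences are Srsf2, Srsf3 and Srsf6, all above 0.

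Among the kinases, Clk4 was higher after heat in both genotypes. Clk4 (ENSMUSG00000020385, chr11:51261730-51281766, plus strand of GRCm38) stood at 13.5, 11.8 and 10.8 FPKM in heated CHIP-KO libraries, against 9.04, 9.42 and 8.48 FPKM in unheated CHIP-KO libraries. In WT cells it stood at 12.95, 11.3 and 12.6 FPKM in heated libraries, against 8.80, 8.47 and 9.75 FPKM in unheated ones. Every heated library was above every unheated library, in both genotypes. The rise was 1.30-fold in CHIP-KO cells (log2 change 0.38, SE 0.0835, adjusted p = 0.00925) and 1.33-fold in WT cells (0.41, SE 0.0835, adjusted p = 0.00143), and the 2 changes differed by -0.03 (SE 0.118, adjusted p = 0.867). Under the equal sum of FPKM the rise stayed positive but was not called in either genotype (log2 change 0.071 in CHIP-KO and 0.19 in WT cells). A short RNA gene on the same strand, Gm25082, lies within Clk4 over 255 bases, and its own FPKM changed the other way with heat (log2 change -1.86 in CHIP-KO, adjusted p = 0.00785; -1.10 in WT, adjusted p = 0.0332).

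Clk1, the kinase most often studied in this family, showed no called change with heat in the fit of all 12 libraries. Clk1 (ENSMUSG00000026034, chr1:58410189-58424066, minus strand) was at 6.45, 7.74 and 7.41 FPKM in heated CHIP-KO libraries, against 8.58, 8.26 and 7.66 FPKM in unheated ones, and at 7.52, 9.68 and 10.02 FPKM in heated WT libraries, against 7.11, 8.01 and 8.43 FPKM in unheated ones. Heated and unheated libraries overlapped in both genotypes, with most heated CHIP-KO values low and most heated WT values high. The log2 change was -0.16 (SE 0.102, adjusted p = 0.297) in CHIP-KO cells and 0.18 (adjusted p = 0.151) in WT cells, and the difference of the changes was -0.34 (SE 0.145, adjusted p = 0.0881). Without replicate 1 of both WT groups that difference was called (-0.40, adjusted p = 0.0143), as was the change in WT cells (0.24, adjusted p = 0.0312). Leaving out heated WT replicate 1 alone had the same effect on both calls (-0.46, adjusted p = 0.0101, and 0.30, adjusted p = 0.0122). In all, the difference was called under 6 of 23 alternatives, among them library weights (adjusted p = 0.00231), voom (0.0484) and the equal sum of FPKM (0.0284). The WT change was called higher under 3 of 24. In CHIP-KO cells Clk1 was called lower with heat under 1 of 24, the equal sum of FPKM (-0.46, adjusted p = 0.00163). Between the heated groups Clk1 was called lower in CHIP-KO than in WT cells, although their libraries overlapped (log2 difference -0.29, SE 0.102, adjusted p = 0.0397), and this call held under 15 of 24 alternative settings. It was lost without any of 7 single libraries: heated CHIP-KO replicate 1 or 3, unheated CHIP-KO replicate 1 or 2, heated WT replicate 2 or 3, or unheated WT replicate 2 (adjusted p from 0.0517 to 0.142).

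Clk2 (ENSMUSG00000068917, chr3:89164795-89176921, plus strand) is the family member linked to insulin signalling as well as to splicing. It was at 8.98, 11.5 and 10.9 FPKM in heated CHIP-KO libraries, against 12.996, 12.4 and 11.5 FPKM in unheated ones, and at 9.12, 9.99 and 11.9 FPKM in heated WT libraries, against 8.45, 10.5 and 11.4 FPKM in unheated ones. The unheated CHIP-KO libraries were above the unheated WT libraries with no overlap, and the other pairs overlapped. None of its comparisons was called in the fit of all 12 libraries, including that without heat (log2 difference 0.27, SE 0.122, adjusted p = 0.0935). With library weights Clk2 was called higher in CHIP-KO cells without heat (0.20, adjusted p = 0.0473), and under the equal sum of FPKM it was called lower with heat in CHIP-KO cells (-0.53, adjusted p = 0.00307).

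The 4 SR genes called lower in heated WT cells were Srsf2, Srsf3, Srsf5 and Srsf6, and in CHIP-KO cells none of the 4 was called in that same fit. Of 24 alternatives in CHIP-KO cells, Srsf5 was called lower under 11, Srsf6 under 7 and Srsf2 under 1, while Srsf3 was called higher under 2. Srsf6 (ENSMUSG00000016921, chr2:162931528-162937121, plus strand), an SR protein of the larger class with paired RNA-binding domains, was at 50.9, 54.0 and 50.8 FPKM in heated CHIP-KO libraries, against 59.4, 58.7 and 55.2 FPKM in unheated ones. In WT cells it was at 48.4, 54.2 and 52.8 FPKM in heated libraries, against 85.7, 71.9 and 70.6 FPKM in unheated ones. Heated libraries were below unheated ones in both genotypes without overlap, and the unheated WT libraries were above the libraries of all other groups. The log2 change was -0.15 (SE 0.0756, adjusted p = 0.188) in CHIP-KO cells and -0.54 (SE 0.0756, adjusted p = 1.07e-04) in WT cells, where the level fell to 0.687 of the unheated one. The WT call held under all 24 alternatives, with log2 changes between -0.78 and -0.41. In CHIP-KO cells Srsf6 was called lower under quantile normalization (adjusted p = 0.0195), library weights (0.0227), voom (0.0170), only the groups compared (0.0361), the 2 equal sums (1.14e-04 and 0.00937) and without replicate 1 of both WT groups (0.0168), with adjusted p in each bracket.

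Srsf2 (ENSMUSG00000034120, chr11:116849901-116853094, minus strand) was at 106, 98.4 and 94.8 FPKM in heated CHIP-KO libraries, against 101, 94.92 and 94.95 FPKM in unheated ones, and at 71.7, 83.5 and 80.3 FPKM in heated WT libraries, against 119, 98.0 and 94.5 FPKM in unheated ones. The 3 heated WT libraries were below the libraries of every other group. With heat the log2 change was 0.04 (SE 0.0894, adjusted p = 0.789) in CHIP-KO cells and -0.40 (SE 0.0894, adjusted p = 0.00278) in WT cells, and the WT call held under all 24 alternatives. Without replicate 1 of both WT groups the WT change was -0.23 (adjusted p = 0.00750). Under the equal sum of FPKM Srsf2 was called lower with heat in CHIP-KO cells as well (-0.29, adjusted p = 0.00814). Srsf2 lies wholly inside Mettl23 and over 655 bases of Mfsd11, both on the opposite strand, and no source used here says whether the counting used strand, so reads of these genes may be mixed. Mettl23 averaged 5.60 FPKM and Mfsd11 11.2 FPKM over the 12 libraries. With heat, Mfsd11 changed by 0.28 in CHIP-KO cells (adjusted p = 0.0694) and by 0.93 in WT cells (adjusted p = 1.71e-05) on the log2 scale, the WT change being opposite in sign to that of Srsf2.

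Srsf3 (ENSMUSG00000071172, chr17:29032628-29043373, plus strand), the smallest SR protein and a promoter of mRNA export and cell growth, was at 48.0, 47.0 and 45.7 FPKM in heated CHIP-KO libraries, against 44.3, 43.6 and 41.9 FPKM in unheated ones. In WT cells it was at 38.4, 41.6 and 39.0 FPKM in heated libraries, against 65.97, 45.7 and 45.2 FPKM in unheated ones. Heated libraries were all higher than unheated ones in CHIP-KO cells and all lower in WT cells, and 1 unheated WT library, replicate 1, stood far above its group. The log2 change was 0.11 (SE 0.116, adjusted p = 0.534) in CHIP-KO cells and -0.37 (SE 0.116, adjusted p = 0.0176) in WT cells. Without replicate 1 of both WT groups the WT change was -0.17 (adjusted p = 0.0109), so the size depends on those libraries and the call does not. With only the groups compared the WT call was lost (adjusted p = 0.0815). The CHIP-KO change was called higher under 2 of 24 alternatives. These were the fit without replicate 1 of both WT groups (0.11, adjusted p = 0.0415) and that of only the groups compared (adjusted p = 0.0498).

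Srsf5 (ENSMUSG00000021134, chr12:80945504-80950507, plus strand), an SR protein induced by insulin and growth signals, was at 44.0, 53.0 and 51.0 FPKM in heated CHIP-KO libraries, against 64.1, 61.5 and 56.9 FPKM in unheated ones, and at 41.5, 53.1 and 49.6 FPKM in heated WT libraries, against 63.7, 58.4 and 55.8 FPKM in unheated ones. All 6 heated libraries were below all 6 unheated ones. The log2 change was -0.30 in both genotypes (SE 0.0983), and it passed the threshold in WT (adjusted p = 0.0206) and not in CHIP-KO cells (adjusted p = 0.0539). The difference between these changes was 0.0029 (SE 0.139, adjusted p = 0.989). Srsf5 was therefore not shown to respond differently in the 2 genotypes. The CHIP-KO change was called lower under 11 of 24 alternatives, among them voom (-0.40, adjusted p = 0.00556), library weights (-0.24, adjusted p = 0.00431) and leaving out heated WT replicate 1 (adjusted p = 0.0196), heated WT replicate 2 (adjusted p = 0.0428) or unheated WT replicate 1 (adjusted p = 0.0466), which alter the shared estimate of the spread. The WT call was lost without WT replicate 1 of either group (adjusted p = 0.0713 without the unheated and 0.0737 without the heated library), and without both the change was -0.15 (adjusted p = 0.175).

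Srsf7 and Srsf10 were not called lower with heat in either genotype in the fit of all 12 libraries. Srsf7 (ENSMUSG00000024097, chr17:80200089-80207305, minus strand), an SR protein with a zinc knuckle, was at 81.6, 79.1 and 80.3 FPKM in heated CHIP-KO libraries, against 66.9, 67.6 and 66.4 FPKM in unheated ones, and at 66.2, 74.6 and 70.8 FPKM in heated WT libraries, against 77.6, 63.3 and 64.3 FPKM in unheated ones. The CHIP-KO groups did not overlap and the WT groups did, with WT replicate 1 lowest of the heated and highest of the unheated libraries. Srsf7 rose 1.20-fold in CHIP-KO cells (log2 change 0.26, SE 0.0739, adjusted p = 0.0307) and was not called in WT cells (0.048, SE 0.0739, adjusted p = 0.602). The CHIP-KO call held under 14 of 24 alternatives. It was lost when any 1 of the 6 CHIP-KO libraries was left out, with adjusted p from 0.0704 to 0.0933. It was also lost with voom (adjusted p = 0.0693), no filter (0.0558), the equal sum over protein-coding genes (0.143) and the equal sum of FPKM (0.295). Without replicate 1 of both WT groups the WT change was 0.18 (adjusted p = 0.00256), and without the unheated one alone it was 0.14 (adjusted p = 0.0362). Under the equal sum of FPKM both directions turned, to -0.076 in CHIP-KO and -0.19 in WT cells, and the WT change was called lower (adjusted p = 0.0207).

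Srsf10 (ENSMUSG00000028676, chr4:135855747-135869908, plus strand), the factor known as a splicing repressor when dephosphorylated by heat, was at 23.4, 22.0 and 22.1 FPKM in heated CHIP-KO libraries, against 24.3, 23.7 and 22.9 FPKM in unheated ones, and at 26.6, 25.0 and 26.1 FPKM in heated WT libraries, against 26.6, 25.8 and 27.3 FPKM in unheated ones. Every CHIP-KO library was below every WT library, and the heat groups overlapped within each genotype. The log2 change with heat was -0.068 (SE 0.0471, adjusted p = 0.345) in CHIP-KO cells and -0.037 (SE 0.0471, adjusted p = 0.522) in WT cells. In CHIP-KO cells it was called lower under 4 of 24 alternatives: library weights (-0.094, adjusted p = 0.0261), voom (-0.16, adjusted p = 0.0412), the equal sum of FPKM (-0.39, adjusted p = 2.19e-04) and the equal sum over protein-coding genes (-0.19, adjusted p = 0.0142). In WT cells it was called lower under the equal sum of FPKM (-0.27, adjusted p = 0.00180). These values carry nothing on the phosphorylation of the protein.

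Tra2a (ENSMUSG00000029817, chr6:49243924-49264033, minus strand) codes for a splicing activator with arginine and serine rich tails on both ends. It was at 31.9, 27.0 and 27.3 FPKM in heated CHIP-KO libraries, against 20.2, 21.3 and 20.7 FPKM in unheated ones, and at 27.1, 26.4 and 23.9 FPKM in heated WT libraries, against 24.8, 19.5 and 20.9 FPKM in unheated ones. The CHIP-KO groups did not overlap, and the WT groups overlapped through replicate 1 of the unheated libraries. Tra2a rose 1.36-fold in CHIP-KO cells (log2 change 0.45, SE 0.09, adjusted p = 0.00587) and 1.18-fold in WT cells (0.24, SE 0.09, adjusted p = 0.0371), and the difference of 0.20 (SE 0.127) was not called (adjusted p = 0.239). The CHIP-KO call held under 23 of 24 alternatives and the WT call under 15. The WT call was lost without heated WT replicate 1 or 2, unheated WT replicate 2 or 3, or unheated CHIP-KO replicate 3 (adjusted p from 0.0508 to 0.143). It was also lost with only the groups compared (adjusted p = 0.0893), no filter (0.0664) and the equal sum over protein-coding genes (0.0503). Under the equal sum of FPKM neither change was called (0.12, adjusted p = 0.258, in CHIP-KO and 0.015, adjusted p = 0.896, in WT cells). A gene model on the opposite strand, Gm43980, overlaps Tra2a over 1612 bases with a mean of 4.08 FPKM, and its own heat changes were not called (adjusted p = 0.220 in CHIP-KO and 0.676 in WT cells).

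The paralog Tra2b, whose promoter is printed above, was at 25.8, 21.4 and 20.1 FPKM in heated CHIP-KO libraries, against 14.95, 15.5 and 15.4 FPKM in unheated ones, and at 28.1, 20.9 and 19.97 FPKM in heated WT libraries, against 17.3, 16.4 and 16.4 FPKM in unheated ones. All 6 heated libraries were above all 6 unheated ones, and replicate 1 was highest in both heated groups. Its log2 change was 0.52 (adjusted p = 0.0104) in CHIP-KO cells and 0.42 (adjusted p = 0.00907) in WT cells.

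Genotype and any other difference between the CHIP-KO and WT cells cannot be told apart in this design. Without heat, 2 of the 10 genes were called lower in CHIP-KO than in WT cells (Srsf6 and Srsf10) and 0 higher, where 24.5% of all genes tested were called lower, 23.9% higher and 48.5% in either direction. At an unadjusted limma p under 0.05, and with limma voom, again 0 of the 10 were higher, while limma with library weights called Clk2 higher. The unheated groups did not overlap for 4 of the 10 genes (Clk2, Srsf3, Srsf6 and Srsf10), against 61.2% of all genes. Srsf6 averaged 57.8 ± 2.24 FPKM in unheated CHIP-KO and 76.1 ± 8.39 FPKM in unheated WT cells (SD, n = 3 each). Its log2 difference of -0.39 (adjusted p = 0.00148) held under all 24 alternatives. Srsf10 averaged 23.6 ± 0.716 FPKM in unheated CHIP-KO and 26.6 ± 0.757 FPKM in unheated WT cells (SD, n = 3 each). Its log2 difference was -0.17 (SE 0.0471, adjusted p = 0.0131), and the call was lost without CHIP-KO replicate 3 (adjusted p = 0.0580) and under the equal sum of FPKM (adjusted p = 0.0694).

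After heat, Srsf10 was again called lower in CHIP-KO cells (log2 difference -0.20, SE 0.0471, adjusted p = 0.00603), together with Clk1 above, and Srsf2 was called higher (0.34, SE 0.0894, adjusted p = 0.00961). That made 2 genes lower and 1 higher of the 10, where 19.1% of all genes tested were called lower, 23.3% higher and 42.4% in either direction. The Srsf2 and Srsf10 calls held under all 24 alternatives. The heated groups did not overlap for 4 of the 10 genes, against 50.4% of all genes: Srsf10, Srsf2, Srsf7 and Srsf3. Of these, Srsf7 and Srsf3 had CHIP-KO libraries above WT libraries and were not called (adjusted p = 0.0631 and 0.126). Both were called without unheated WT replicate 1, and without replicate 1 of both WT groups (log2 difference 0.14, adjusted p = 0.00742, and 0.21, adjusted p = 0.00247).

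The heat change itself differed between the genotypes in 3 of the 10 genes (Srsf2, Srsf3 and Srsf6), each with a more positive change in CHIP-KO cells, where 17.9% of all genes tested were called in that direction and 35.2% in either. The difference of the log2 changes, CHIP-KO minus WT, was 0.44 for Srsf2 (SE 0.126, adjusted p = 0.0200), 0.48 for Srsf3 (SE 0.164, adjusted p = 0.0404) and 0.39 for Srsf6 (SE 0.107, adjusted p = 0.0155). For Srsf2 and Srsf6 the call held under all 23 alternatives that apply. For Srsf3 it held under 11, and it was lost without any 1 of the 6 CHIP-KO libraries or without heated WT replicate 1 or 3 (adjusted p from 0.0622 to 0.0849). It was also lost with no filter (adjusted p = 0.0915), quantile normalization (0.0742), the equal sum of FPKM (0.0717) and the equal sum over protein-coding genes (0.0669). Without replicate 1 of both WT groups the differences were smaller and called, at 0.27 for Srsf2 (adjusted p = 0.0178), 0.28 for Srsf3 (adjusted p = 0.00479) and 0.25 for Srsf6 (adjusted p = 0.0107). The 3 genes reached their pattern from different groups: Srsf6 was high in unheated WT cells alone, and Srsf2 was low in heated WT cells alone. Srsf3 was below its unheated level in heated WT libraries and above it in heated CHIP-KO libraries. That CHIP-KO rise was not called in the main fit and was called under 2 of 24 alternatives. This comparison shares its unheated WT libraries with the heat comparison in WT cells and the genotype comparison without heat.

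Within each family the mix of transcripts was also set side by side, as each gene's percent of the family's summed FPKM in the same library. Such a percent does not depend on how libraries were scaled, and no test was run on it. Srsf7 made up 15.4%, 15.1% and 15.5% of the summed FPKM of the 11 Srsf genes listed in heated CHIP-KO libraries, against 12.5%, 12.8% and 12.9% in unheated ones, and 14.6%, 15.6% and 15.1% in heated WT libraries, against 11.8%, 11.5% and 11.9% in unheated ones. All 6 heated libraries, replicate 1 of WT included, were above all 6 unheated ones. Srsf6 went the other way, with 9.58%, 10.3% and 9.78% in heated CHIP-KO libraries, against 11.1%, 11.1% and 10.7% in unheated ones, and 10.7%, 11.3% and 11.2% in heated WT libraries, against 13.02%, 13.08% and 13.05% in unheated ones. The heat groups did not overlap within either genotype, and at each treatment the CHIP-KO shares were below the WT shares. Srsf2 held 18.3% to 19.96% in heated and 17.98% to 18.8% in unheated CHIP-KO libraries, against 15.8% to 17.4% in heated and 17.5% to 18.1% in unheated WT libraries, so only the WT groups did not overlap.

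The summed FPKM of the 11 Srsf genes was 519 to 531 in heated and 514 to 534 in unheated CHIP-KO libraries, against 453 to 479 in heated and 541 to 658 in unheated WT libraries. On the deposited scale the Srsf sum was thus alike at both treatments in CHIP-KO cells and lower with heat in every WT library. Unlike the shares, this sum depends on scaling. All genes together summed to 345087 to 359482 FPKM in heated and 277703 to 280256 FPKM in unheated CHIP-KO libraries. In WT libraries they summed to 324757 to 347596 FPKM with heat and 281598 to 290467 FPKM without. The shares of Srsf7 and Srsf11 were higher with heat, without overlap, in both genotypes. In WT cells the FPKM of Srsf7 itself overlapped between treatments and was not called in the main fit, while the Srsf sum was lower with heat. Srsf11, an SR-like protein outside the 10, held 5.83% to 5.94% in heated and 4.75% to 5.21% in unheated CHIP-KO libraries, against 5.83% to 6.57% in heated and 3.39% to 4.63% in unheated WT libraries. Among the 4 CLK genes, Clk4 made up 41.7%, 33.7% and 33.1% of the sum in heated CHIP-KO libraries, against 26.5%, 28.3% and 27.6% in unheated ones, and 37.3%, 32.3% and 32.5% in heated WT libraries, against 30.7%, 27.0% and 28.9% in unheated ones. The heat groups did not overlap in either genotype, and replicate 1 was highest in both heated groups. The summed CLK level itself was 32.5 to 34.9 FPKM in heated and 30.7 to 34.2 FPKM in unheated CHIP-KO libraries, against 34.7 to 38.9 FPKM in heated and 28.7 to 33.8 FPKM in unheated WT libraries. Tra2a held 55.3% to 57.6% of the summed Tra2 level in heated and 57.3% to 58.0% in unheated CHIP-KO libraries, against 49.1% to 55.8% in heated and 54.3% to 58.9% in unheated WT libraries. The Tra2a shares of heated and unheated libraries overlapped in both genotypes, with the mean lower after heat in each (56.3% against 57.6% in CHIP-KO cells and 53.1% against 56.4% in WT cells). The summed Tra2 level was 47.5 to 57.6 FPKM in heated and 35.2 to 36.8 FPKM in unheated CHIP-KO libraries, and 43.9 to 55.3 FPKM in heated and 36.0 to 42.1 FPKM in unheated WT libraries.

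**Figure D3:**
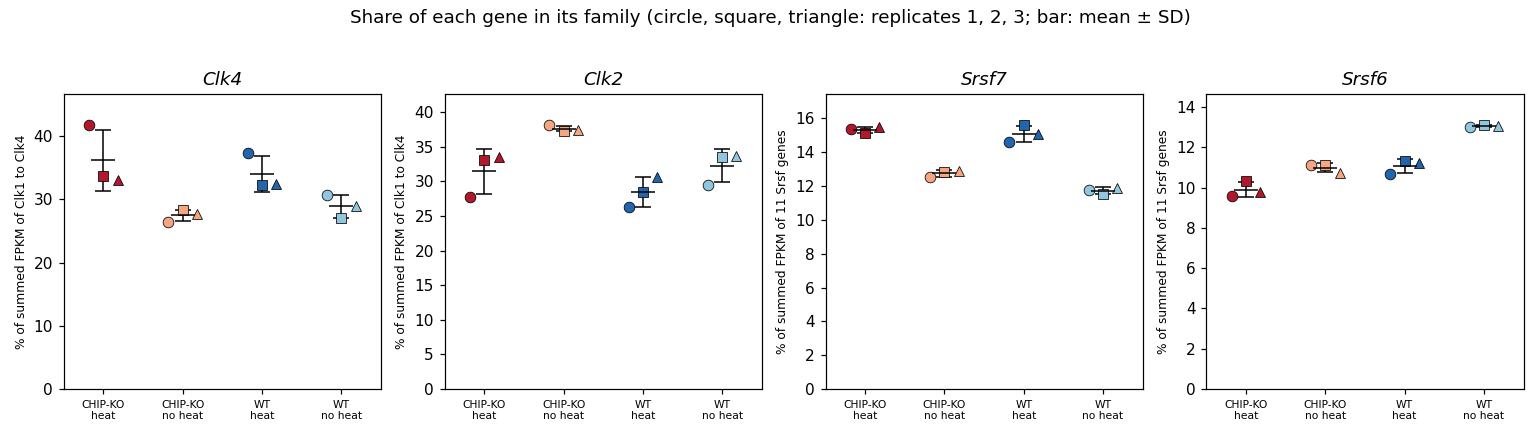
Percent of each family's summed FPKM held by single genes in each library (vertical axis), by group; symbols are libraries and bars are the mean ± SD of 3. The Srsf7 share lies at 14.6% to 15.6% in the 6 heated and at 11.5% to 12.9% in the 6 unheated libraries, and the Clk4 share is higher in heated than in unheated libraries of the same genotype.

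Over the 12 libraries the 10 genes fell along more than a single pattern. The strongest positive correlations of log2(FPKM + 1) were between Srsf2 and Srsf3 (Pearson r 0.867), Srsf7 and Tra2a (0.827), Clk4 and Tra2a (0.820) and Srsf3 and Srsf6 (0.726). The strongest negative ones were between Clk4 and Srsf5 (-0.880), Srsf5 and Tra2a (-0.724) and Clk4 and Srsf6 (-0.704). Clk1 and Clk4, the closest paralogs of the kinase family, were at -0.018, and Clk1 and Clk2 at 0.542. These values describe 12 libraries that share groups, scaling and the outlying replicates 1, and carry no test.

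**Figure D4:**
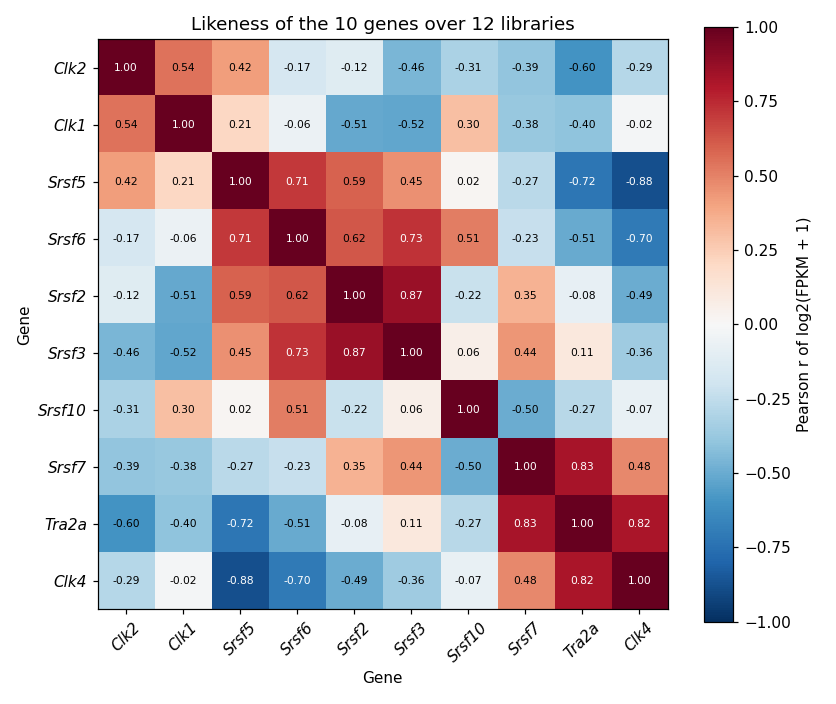
Pearson r of log2(FPKM + 1) over the 12 libraries for each pair of the 10 genes, printed in each cell and coloured from -1 to 1. Clk4 and Tra2a are positive with each other (0.82) and negative with Srsf5 (-0.88 and -0.72), and Srsf2 and Srsf3 are at 0.87.

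Among 7483 protein-coding genes outside the 10 with a mean of at least 5 FPKM, the 3 most like Clk4 over the 12 libraries were Prpf38b (r 0.973), which codes for a spliceosome protein, Wsb1 (0.963) and Bag3 (0.945), a heat-inducible HSP70 co-chaperone. The 3 most like Tra2a were Sirt1 (0.953), Zfp367 (0.950) and Dusp5 (0.948). For Srsf7 they were Fxr1 (0.951), Eef1b2 (0.950) and Rps14 (0.916), and for Clk1 they were Ap5z1 (0.921), Map2k7 (0.899) and Poldip2 (0.892). These are the highest of many correlations over 12 libraries and are given as a description.

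The other genes of the pathway were followed as lists. Of 6 other SR and Tra2 genes 5 were tested (Srsf12 was at most 0.0548 FPKM). With heat 2 of the 5 were called higher and 0 lower in CHIP-KO cells by limma (0 lower at an unadjusted p under 0.05 too), and 2 higher and 2 lower in WT cells, with medians of 0.010 and 0.079. Srsf1, the founding SR protein, was called lower with heat in WT cells alone (log2 change -0.47, adjusted p = 1.44e-04), and its changes differed between genotypes by 0.44 (adjusted p = 0.00477). Srsf9 was also called lower in WT cells alone (-0.54, adjusted p = 4.84e-04), with a difference of 0.44 (adjusted p = 0.0252). In CHIP-KO cells its heated libraries (61.3 to 65.4 FPKM) were still all below its unheated ones (66.5 to 71.0 FPKM). Srsf11 rose in both genotypes (0.21, adjusted p = 0.0307, in CHIP-KO and 0.30, adjusted p = 0.00143, in WT cells).

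Of 14 other kinases and phosphatases that act on SR proteins or are related to those that do, 13 were tested, with 1 called higher and 2 lower in heated CHIP-KO cells, and 3 higher and 4 lower in heated WT cells (medians -0.029 and -0.077). Srpk1, an SR protein kinase, was lower with heat in WT cells (log2 change -0.41, adjusted p = 2.38e-04), and its changes differed by 0.32 (adjusted p = 0.0190). Srpk2, its paralog, was called lower with heat in CHIP-KO cells (-0.20, adjusted p = 0.0141) and higher in WT cells (0.27, adjusted p = 7.35e-04), a difference of -0.47 (adjusted p = 3.93e-04). Ppp1ca, a catalytic subunit of protein phosphatase 1, fell in WT cells (-0.44, adjusted p = 5.85e-05) with a difference of 0.51 (adjusted p = 5.52e-04), and Ppp1r10, which targets that phosphatase to the nucleus, rose in WT cells (0.57, adjusted p = 0.00385). In CHIP-KO cells the heated values of Ppp1r10 (23.7 to 29.9 FPKM) were also above the unheated ones (20.1 to 20.9 FPKM). Dyrk1a rose in CHIP-KO cells (0.39, adjusted p = 0.00579) and Dyrk1b fell there (-0.40, adjusted p = 0.00788). In WT cells the heated values of Dyrk1a (10.6 to 13.6 FPKM) were also above the unheated ones (8.85 to 9.95 FPKM), while those of Dyrk1b overlapped. Clk3, the remaining CLK gene, was lower in CHIP-KO than in WT cells without heat (-0.31, adjusted p = 0.00446), at 3.27 ± 0.251 against 4.30 ± 0.0768 FPKM (SD, 3 libraries each).

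In the lists of general splicing factors most calls in heated WT cells were downward, and few genes were called lower in heated CHIP-KO cells. Over all genes tested, 30.5% were called lower and 28.1% higher with heat in WT cells, against 11.4% and 8.65% in CHIP-KO cells. The lists were not counted under the alternatives. Over all genes, voom called 3007 lower and 906 higher in heated CHIP-KO cells. Of 31 spliceosome core genes tested 4 were called higher and 0 lower by limma with heat in CHIP-KO cells (9 higher and 0 lower at an unadjusted p under 0.05; median 0.13), and 2 higher and 12 lower in WT cells (median -0.17). The changes of 12 of the 31 differed between genotypes, all more positive in CHIP-KO cells, led by the U2 protein gene Snrpa1 (0.80, adjusted p = 0.00114). Of 26 hnRNP genes 6 were higher and 1 lower with heat in CHIP-KO cells (median 0.042), and 3 higher and 14 lower in WT cells (median -0.19). Hnrnpab fell in WT cells (-0.67, adjusted p = 6.13e-06), and Ptbp2, a repressor of neuronal exons, rose in CHIP-KO (0.64, adjusted p = 8.01e-05) and WT cells (0.50, adjusted p = 3.68e-05). The changes of 10 hnRNP genes differed, again all more positive in CHIP-KO cells. For comparison, 17.9% of all genes were called in that direction.

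Of 29 SR-related genes tested, 2 were higher and 5 lower with heat in CHIP-KO cells (median 0.033), and 10 higher and 6 lower in WT cells (median 0.040). Luc7l3 and Rsrc2, both with arginine and serine rich tails, rose in CHIP-KO (0.46, adjusted p = 0.00333, and 0.45, adjusted p = 2.20e-04) and in WT cells (0.52, adjusted p = 2.95e-04, and 0.56, adjusted p = 4.01e-06), and Arglu1 fell in both (-0.51, adjusted p = 0.0111, in CHIP-KO; -0.53, adjusted p = 0.00243, in WT). Of 15 NMD factors, the genes that dispose of poison-exon transcripts, 5 were higher and 2 lower with heat in CHIP-KO cells (median 0.17), and 2 higher and 6 lower in WT cells (median -0.069). Magohb and Eif4a3, both of the exon junction complex, fell in WT cells (-0.68, adjusted p = 1.37e-04, and -0.45, adjusted p = 9.00e-05), and their changes differed between genotypes by 0.79 (adjusted p = 0.00129) and 0.48 (adjusted p = 0.00165). The shares over all genes given above for each comparison are the ones to set beside these counts.

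**Figure D5:**
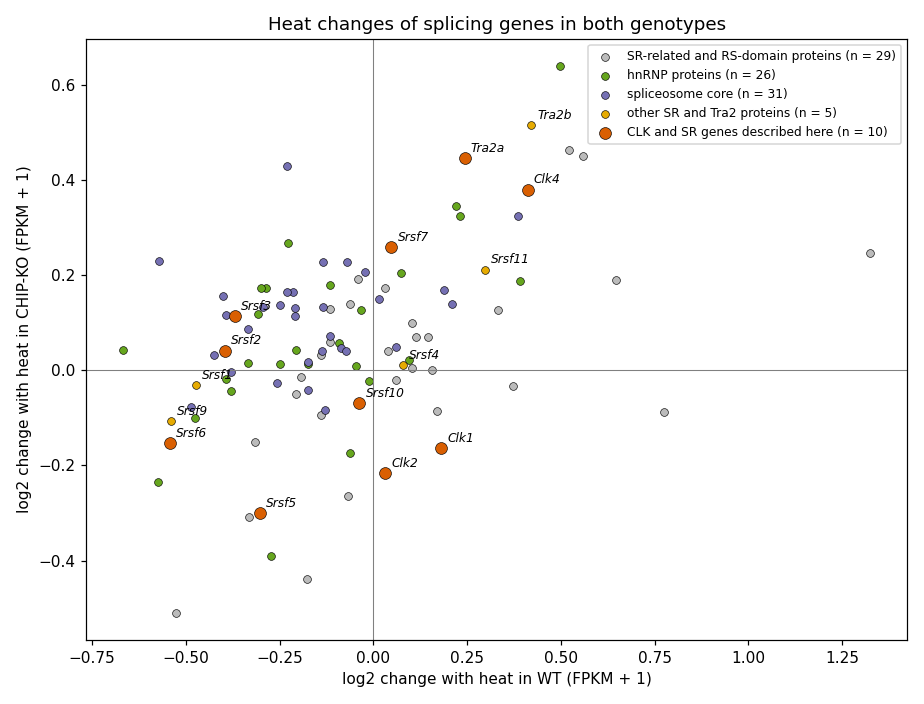
limma log2 change of FPKM + 1 with heat in WT cells (horizontal axis) against that in CHIP-KO cells (vertical axis) for each gene of the lists, coloured by list; the 10 genes described here and the other SR and Tra2 genes are named. Clk4, Tra2a, Tra2b and Srsf11 lie to the upper right with called rises in both genotypes, and Srsf1, Srsf2, Srsf3, Srsf6 and Srsf9 lie to the left with called falls in WT cells only, their differences between genotypes being called.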

How the data were processed

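Poly(A) RNA from 12 libraries of MEFs was sequenced, 3 per group, per the labels' protocols. The authors deposited 1 table of FPKM values per gene. Per the submitters' processing notes, the aligner was HISAT2. Its version, how fragments were counted, whether strand was used and the depth behind the scaling were not given in the sources used here. Multiplied by gene length, 100% of the values came out as whole fragments (tolerance 0.01), giving 15591924 to 26954112 fragments per library. Counting errors cover sampling only, since reads without molecular identifiers are not independent molecules. Of 54532 genes, 54495 were in GENCODE M21 and 53585 had identical positions there, so positions are on GRCm38; that of Srsf7 is as deposited and differs in M21.

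Genes with at least 1 FPKM in at least 3 libraries (13023) were kept. Log2(FPKM + 1) was fitted in limma 3.58.1 (R 4.3.3) with a mean per group and a variance trend over all 12 libraries; contrasts were two-sided and adjusted by Benjamini-Hochberg over all genes kept, at 0.05. Library weights for WT replicate 1 were 0.165 heated and 0.192 unheated. Alternatives covered the pseudocount, filter, scaling, samples, weights, limma voom on recovered fragments, the replicate block and libraries left out. Equal scaling over protein-coding genes was added after seeing the data. Python 3.11.15 with matplotlib 3.10.9 made the figures.

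The 10 genes and all lists were chosen with earlier results of these data known. Named genes are the 10; Stub1 and Hspa1a; from each list, at most 3 genes with the largest called log2 change per comparison; and the 3 genes most like Clk1, Clk4, Srsf7 and Tra2a. Overlapping genes, the values of Srsf11, Srpk2 and Arglu1 in WT cells, Lum, and Dnajb1, Hspa1b and Hspb1 in the promoter search were added because they touch a result. Promoter sequences are from RefSeq.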

Additional observations from a re-analysis of the deposited data

Results flagged for a closer look

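For 3 of the 10 genes the effect of heat differed between CHIP-KO and WT cells by a test of the difference itself (limma's interaction term, adjusted over all 13023 genes). The difference of the log2 changes, CHIP-KO minus WT, was 0.44 for Srsf2, 0.48 for Srsf3 and 0.39 for Srsf6. The Srsf3 call held under 11 of 23 alternatives, and those of Srsf2 and Srsf6 under all 23. Heat and genotype gave such a difference, in either direction, for 35.2% of all genes tested.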

How the results depend on the processing

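Of 24 alternatives per heat or genotype comparison (23 for the difference of the heat changes), the calls of Srsf2 and Srsf6 in heated WT cells, of Srsf6 without heat and of Srsf2 and Srsf10 after heat held under all, and those of Clk4 in both genotypes and of Tra2a in CHIP-KO cells under 23. With heat in CHIP-KO cells the main counts were 2607 genes (1126 higher, 1481 lower) and 3 of the 10. An equal sum of FPKM gave 8758 genes (547 higher, 8211 lower) and 6 of the 10 (all lower). Library weights gave 6201 and 6, voom 3913 and 5, only the groups compared 4043 and 6, leaving out both WT replicates 1 4414 and 6, an equal sum over protein-coding genes 4150 (730 higher, 3420 lower) and 5, quantile normalization 5 of the 10, and a mean of at least 5 FPKM 1578 genes. Under the equal sum, Srsf7 turned to -0.076 in CHIP-KO (not called) and -0.19 in WT cells (called lower), and Srsf2 to -0.29 in CHIP-KO cells (called lower). With heat in WT cells 7640 genes (3664 higher, 3976 lower) became 8538 (2343 higher, 6195 lower) under the equal sum, 9252 (5379 higher, 3873 lower) with no filter and 5087 with a mean of at least 5 FPKM, and 6 of the 10 became 3 with only the groups compared. Without heat the equal sum left 1 of the 10. After heat, library weights gave 8590 genes and 6 of the 10, leaving out both WT replicates 1 gave 5, and the equal sum split 5403 genes into 2367 higher and 3036 lower (main 3033 and 2492), the equal sum over protein-coding genes 5496 into 2454 and 3042. For the difference of the changes, weights gave 7403 genes, the equal sum 1766 higher and 2868 lower and the sum over protein-coding genes 1783 and 2837 (main 2328 and 2253). Beyond the scalings' own construction, the cause was not tested.

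Leaving out 1 library at a time gave 1592 to 3462 genes and 2 to 4 of the 10 with heat in CHIP-KO cells, 7033 to 7622 and 5 to 6 with heat in WT cells, 5325 to 6853 and 1 to 3 without heat, 4635 to 6042 and 2 to 5 after heat, and 3793 to 4870 and 2 to 3 for the difference. The lone 1 was without CHIP-KO replicate 3 and the 5 without unheated WT replicate 1. With the replicate number as a block the counts were 2606 genes and 3 of the 10 with heat in CHIP-KO cells, 7637 and 6 in WT cells, 6299 and 2 without heat, 5525 and 3 after heat and 4583 and 3 for the difference, and no call among the 10 changed. Same-numbered libraries correlated over 0.1 in 2 of 18 pairs (r -0.1195 to 0.3349). Both joined heated WT and heated CHIP-KO libraries, replicates 1 (0.335) and replicates 3 (0.231), while replicates 2 were at 0.0207. Between the heated groups, replicates 1 and 3 crossed were at -0.270 and -0.315. Replicates 2 and 3 crossed were at 0.130 both ways. Whether same-numbered heated libraries share more than a number was not tested, since the block was not fitted for heated libraries alone.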
